A study of Mus musculus with 120 samples.

Results

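The comparison concerns added proline in macrophages that already carry a high dose of halofuginone. It uses 36 of the 120 libraries of the series. In 18 libraries bone-marrow-derived macrophages had halofuginone at 625, 2500 or 10000 nM together with 2 mM proline, and in 18 they had the same doses without proline. The members were chosen by their dose and proline labels alone, and each arm holds 2 libraries for each dose at each of T0, T1 and T4. For scale, 36 control libraries carry neither label, 12 at each time, and 24 libraries at the middle doses of 39 and 156 nM form the nearest other proline comparison.

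All cells came from male C57BL/6 mice aged 12 weeks, were grown in serum medium conditioned with CMG, and carried a virus holding transcription factor reporters, controls included. The series concerns macrophages given small molecules ahead of lipopolysaccharide (LPS), the bacterial cell wall component that macrophages sense as infection. The time labels have no unit, and they do not tell which single libraries had LPS or whether the controls had a vehicle. The labels do not say whether the 2 libraries of a group are separate cultures. The p-values therefore speak of the spread among these libraries alone, which may be technical.

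Halofuginone is a plant-derived compound that occupies the proline site of the glutamyl-prolyl-tRNA synthetase encoded by Eprs. The enzyme then cannot charge the prolyl tRNA, and uncharged tRNA activates the kinase GCN2 and the transcription factor ATF4. Proline competes with halofuginone for this site, so added proline is the usual test of whether an effect of the drug passes through the enzyme. The comparison asks which RNAs still differ with proline when the drug is at its highest doses.

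The libraries were shallow. The 36 totals lay between 20000 and 62184 counts (median 42255.5), and 6 had under 30000 counts, 2 with proline and 4 without. Rn45s, the 45S precursor of ribosomal RNA, held 55.9 to 71.1% of the counts in these libraries and 27.0 to 51.8% in controls, which left 5798 to 26812 counts for other genes. Csf1r, the receptor for the macrophage growth factor, averaged 756 ± 317 CPM (counts scaled to the library total) with proline, 680 ± 287 CPM without (SD, n = 18 each) and 784 ± 270 CPM in controls (SD, n = 36). The summed list of macrophage identity genes was lower than in controls in both arms. Its medians were 5361 CPM with proline and 4842 CPM without, against 8178 CPM in controls. Among markers of other cells, all 7 B cell genes in the table were at 0 in the 36 libraries, as were 10 of the 11 T and NK cell genes, 10 of the 12 erythroid and mast cell genes, and the neutrophil genes Elane, Mpo and Prtn3. The summed neutrophil list ran from 0 to 369 CPM with proline, with a median of 119.8, and from 32.2 to 336 CPM without, with a median of 129. Its control values ran from 212 to 559 CPM. Summed fibroblast markers ran from 0 to 139 CPM with proline, with a median of 22.8, and from 0 to 45.1 CPM without, with a median of 0. The dendritic cell list had medians of 32.8 CPM with proline and 51.3 CPM without. The part of these low lists in any result was not tested. Fewer cells of a type and less RNA per cell cannot be told apart in such bulk samples.

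Across the 3 doses Ifrd1, a stress-induced transcriptional cofactor, averaged 358, 646 and 528 CPM with proline at 625, 2500 and 10000 nM (n = 6 per dose). Without proline its means at these doses were 487, 575 and 524 CPM, against 33.7 CPM in controls. A difference in level between these doses was not tested. The edgeR test of whether the proline change differed between these doses did not call Ifrd1 (adjusted p = 0.853). Its means at 39 and 156 nM were 114 and 207 CPM with proline, and 343 and 425 CPM without.

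No measure of depth or composition passed a test between the arms. Totals averaged 43703 ± 11241 counts with proline and 38522 ± 11135 without (SD, n = 18 each; two-sided exact permutation within the 9 time-by-dose cells, p = 0.153, adjusted p = 0.192 over 5 measures). Genes with at least a single count numbered 3619.8 ± 792 with proline and 3271 ± 592 without (exact permutation p = 0.0515, adjusted p = 0.192). The Rn45s share was 62.3 ± 3.28% with proline and 63.3 ± 2.12% without (exact permutation p = 0.223, adjusted p = 0.223). Without replicate 2 with proline at 625 nM and T4 the count of genes had an adjusted p of 0.0232 (exact permutation), and it was the 1 leave-out that passed. The Lars2 share was 3.44 ± 0.523% with proline and 3.64 ± 0.639% without (exact permutation p = 0.151, adjusted p = 0.192).

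**Figure D1:**
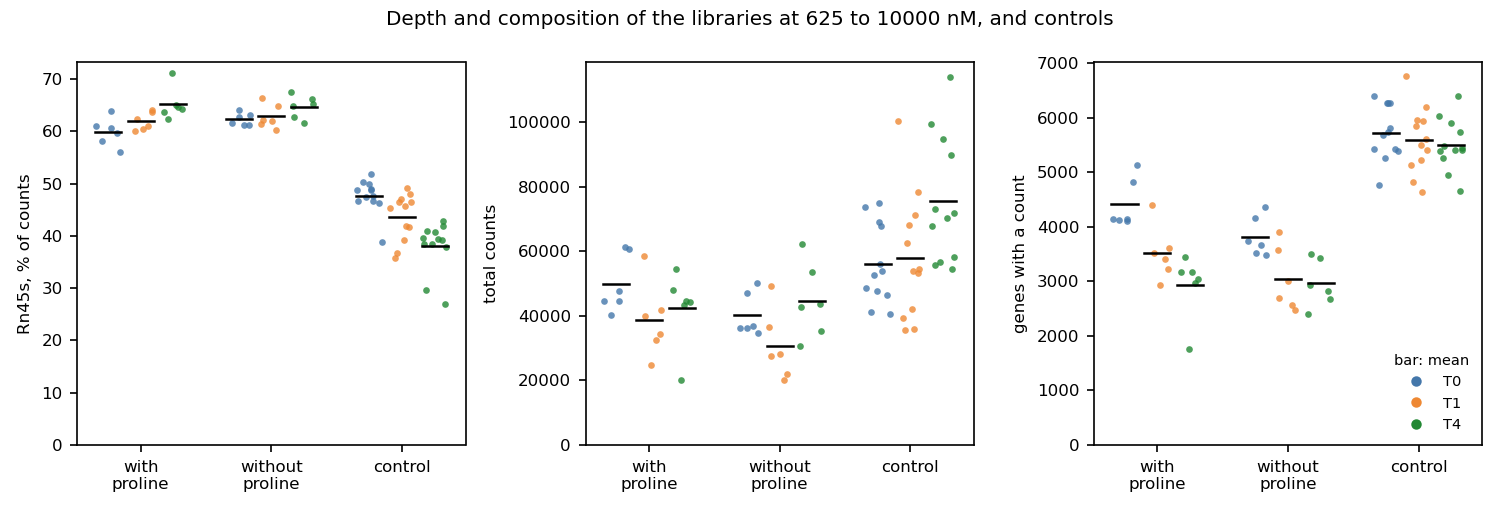
Share of Rn45s in percent, total counts, and number of genes with a count, per library, for halofuginone at 625 to 10000 nM with proline, the same doses without proline, and controls; colours mark T0, T1 and T4 and bars are means. The Rn45s shares of both treated arms (55.9 to 71.1%) lie above those of all controls (27.0 to 51.8%), and the treated arms overlap each other in all 3 measures.

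Few of the RNAs that could be tested passed the proline test at these doses. Of 204 genes with enough counts to test, 6 passed an adjusted p of 0.05 (edgeR quasi-likelihood test with time and dose as blocks, Benjamini-Hochberg adjustment), which is 2.94% of those tested. The 5 that rose with proline were Rpl5, Hnrnpa3, Aplp2, Skil and Hspa9, and the 1 that fell was Rpph1, or 2.45% and 0.49% of those tested. At an unadjusted p under 0.05 stood 28 genes, 13.7% of those tested, where 10.2 would be expected if no gene differed. The 95% interval of the log2 fold change lay within 1 on either side of 0 for 194 genes, or 95.1%, and the median size of a change was 0.17 on the log2 scale. Of the variation in log2 CPM among the 36 libraries over these genes, time took 53.7%, dose 4.58% and proline 2.31%. A single degree of freedom takes 2.86% on average, a value that includes the large share of time. The variation left after time, dose and proline came to 1.32% per degree of freedom, less than the share of proline. The first principal component held 48.9% of the variance.

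Rpl5 encodes a ribosomal protein of the large subunit that carries 5S ribosomal RNA and binds the p53 regulator MDM2 when it is free of ribosomes. Hnrnpa3 encodes an RNA-binding protein of nuclear mRNA particles, and Serpinb6a, described with the wider test, encodes an intracellular inhibitor of serine proteases. The 250 bases upstream of each RefSeq start (GRCm38.p6), 5′ to 3′ on the gene's own strand, lie at chr5:107900278-107900527 (plus strand) for Rpl5, chr2:75659009-75659258 (plus strand) for Hnrnpa3 and chr13:34002795-34003044 (minus strand) for Serpinb6a. They are shown because these are the higher genes that the text follows most closely. Capitals mark a CCAAT box (CCAAT) or a GC box (GGGCGG), both strands searched.
Rpl5: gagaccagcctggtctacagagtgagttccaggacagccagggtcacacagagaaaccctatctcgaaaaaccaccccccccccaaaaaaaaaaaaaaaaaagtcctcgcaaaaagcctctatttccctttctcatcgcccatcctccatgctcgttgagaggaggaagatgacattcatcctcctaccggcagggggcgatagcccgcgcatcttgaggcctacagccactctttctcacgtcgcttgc
Hnrnpa3: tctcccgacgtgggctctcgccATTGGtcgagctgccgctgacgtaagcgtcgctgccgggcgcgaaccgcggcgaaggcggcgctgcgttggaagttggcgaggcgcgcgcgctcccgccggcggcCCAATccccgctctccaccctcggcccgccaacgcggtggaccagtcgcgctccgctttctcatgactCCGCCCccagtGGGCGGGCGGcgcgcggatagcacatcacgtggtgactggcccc
Serpinb6a: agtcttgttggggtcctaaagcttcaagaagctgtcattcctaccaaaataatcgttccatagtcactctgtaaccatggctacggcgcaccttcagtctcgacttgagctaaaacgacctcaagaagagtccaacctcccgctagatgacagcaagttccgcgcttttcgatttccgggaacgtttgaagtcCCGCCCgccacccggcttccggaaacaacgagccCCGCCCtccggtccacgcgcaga
The Rpl5 window held neither box, the Hnrnpa3 window both and this Serpinb6a window only the GC box. A second RefSeq start of Serpinb6a lies further into the gene, and its window held only a CCAAT box. None of the 3 windows shown held TGATGNAAT, a form of the composite site for ATF4 and C/EBP factors. Among 32851 RefSeq promoters of the same length, 33.85% held CCAAT, 32.74% GGGCGG and 0.816% TGATGNAAT. A match of letters is a description and not a binding site. Of 11 genes called under either filter, 7 had an entry in the table of promoters.

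Rpl5 (ENSMUSG00000058558, chr5:107900502-107909005, plus strand, protein coding) was the gene with the smallest p. Its lowest, median and highest levels were 176, 586 and 1952 CPM with proline, against 55.9, 296 and 649 CPM without (n = 18 each). The ranges overlapped, and 15 of the 18 libraries with proline lay above the median of those without. Its log2 fold change with proline was 1.15 (SE 0.23, 95% interval 0.69 to 1.60, adjusted p = 0.000506). Controls averaged 508 ± 184 CPM (SD, n = 36). Against them Rpl5 stood at a log2 value of 0.47 with proline and -0.65 without, both set against the same controls.

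The Rpl5 difference had the same sign at every time and dose. At T0 its median was 659.6 CPM with proline and 411 CPM without, at T1 665 CPM with and 381 CPM without, and at T4 307 CPM with and 222 CPM without (n = 6 per arm and time). The fitted log2 differences were 1.06, 0.88 and 1.38 at T0, T1 and T4. By dose they were 1.19 at 625 nM, 0.68 at 2500 nM and 1.45 at 10000 nM. A pair of libraries with proline at 625 nM, 1 at T1 and 1 at T4, held the highest levels, 1758 and 1952 CPM from 84 and 74 reads. Rpl5 passed the test with each of the 36 libraries left out in turn, these among them, and its log2 change ran from 0.95 to 1.22. With T4 left out it had a log2 change of 0.95 and an adjusted p of 0.0542. In libraries of 30000 counts or more its log2 change was 1.21, with an adjusted p of 0.000766. The annotation places 3 small nucleolar RNA genes on the same strand within Rpl5 and names 2 pseudogenes for it, so its counts could hold reads of these.

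The other ribosomal protein genes gave no call. Of 82 in the table, 4 passed the filter: beside Rpl5, Rpl4 had a log2 change of -0.22 (adjusted p = 0.661), and the median of the 4 was -0.03. A wider filter, described with Serpinb6a, let 50 be tested; 1 passed, Rpl5 itself, and their median was -0.02 against 0.02 over all 839 genes tested. Rpl41 had 0.09 (95% interval -0.46 to 0.64, wider filter), and Rpl37a, too low to test, had 57 reads with proline and 31 without. Summed over all 82 genes, the level had a median of 12389 CPM with proline and 11769 CPM without, against 33394 CPM in controls.

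Hnrnpa3 (chr2:75659261-75669407, plus strand) ran from 395 to 2078 CPM with proline with a median of 909, and from 90.2 to 808 CPM without with a median of 608 (n = 18 each). The arms overlapped, and 14 of 18 libraries with proline exceeded the median without. Its log2 change was 0.67 (SE 0.18, adjusted p = 0.0213). The difference was larger at the upper doses: at 625 nM the mean was 634 ± 208 CPM with proline and 649.9 ± 90.7 CPM without (SD, n = 6 here and at the next doses). At 2500 nM it was 946 ± 458 CPM with proline and 558 ± 129 CPM without. At 10000 nM it was 1327 ± 441 CPM with proline and 518 ± 252 CPM without. The fitted log2 differences by dose were -0.01, 0.62 and 1.33, of which the last passed within its dose (adjusted p = 0.00454). The test of proline by dose over all 204 genes called none (0 of 204, 0%; 16 at an unadjusted p under 0.05; DESeq2 called 0), so these doses were not shown to differ. Controls averaged 617 ± 236 CPM.

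Aplp2, an amyloid precursor-like membrane protein, had 134, 349.9 and 1088 CPM (lowest, median, highest) with proline and 0, 172 and 851 CPM without (n = 18 each). Its log2 change was 0.92 (SE 0.26, adjusted p = 0.0331), and 15 of 18 libraries with proline exceeded the median without. Within 10000 nM its log2 change was 1.74 (adjusted p = 0.0482). At T0 the medians were 623 CPM with proline and 196 CPM without, at T1 321 CPM with proline and 212 CPM without, and at T4 293 CPM with proline and 172 CPM without. Its control mean was 173 ± 102 CPM, close to the median of libraries without proline.

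Skil and Hspa9 were the weakest of the calls. Skil encodes SnoN, a repressor of SMAD transcription factors, and had 229, 661 and 1492 CPM with proline against 164, 419.9 and 813 CPM without. Its log2 change was 0.64 (SE 0.19, adjusted p = 0.0444), and its highest median was at T1, 1119.6 CPM with proline and 529 CPM without. Hspa9 encodes mortalin, a mitochondrial member of the heat shock protein family, and had 154, 448 and 1446 CPM with proline against 93.4, 274 and 809 CPM without. Its log2 change was 0.75 (SE 0.23, adjusted p = 0.0468). Leaving out 1 library at a time, Skil lost its call in 17 of 36 fits, Hspa9 in 21, Aplp2 in 10, Hnrnpa3 in 3, and Rpl5 and Rpph1 in none.

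Rpph1 (chr14:50807449-50807767, minus strand) is the RNA of ribonuclease P, which trims the leader of precursor tRNAs. It had 369, 916 and 1256 CPM with proline, against 729, 1178 and 2262 CPM without (lowest, median, highest, n = 18 each). The ranges overlapped, and 2 of 18 libraries with proline lay above the median without. Its log2 change was -0.58 (SE 0.15, 95% interval -0.88 to -0.28, adjusted p = 0.0213). Controls averaged 384 ± 164 CPM, and against them Rpph1 stood at a log2 value of 1.27 with proline and 1.86 without. By time its log2 differences were -0.80, -0.44 and -0.49 at T0, T1 and T4. Because Ccnb1ip1 overlaps it on the same strand, reads of that gene could be counted with it. Of 6 structural and nuclear RNAs tested it was the 1 that passed: Rnu6 had -0.36 (adjusted p = 0.182), and Malat1, a nuclear long noncoding RNA, had 0.34 (adjusted p = 0.0702).

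**Figure D2:**
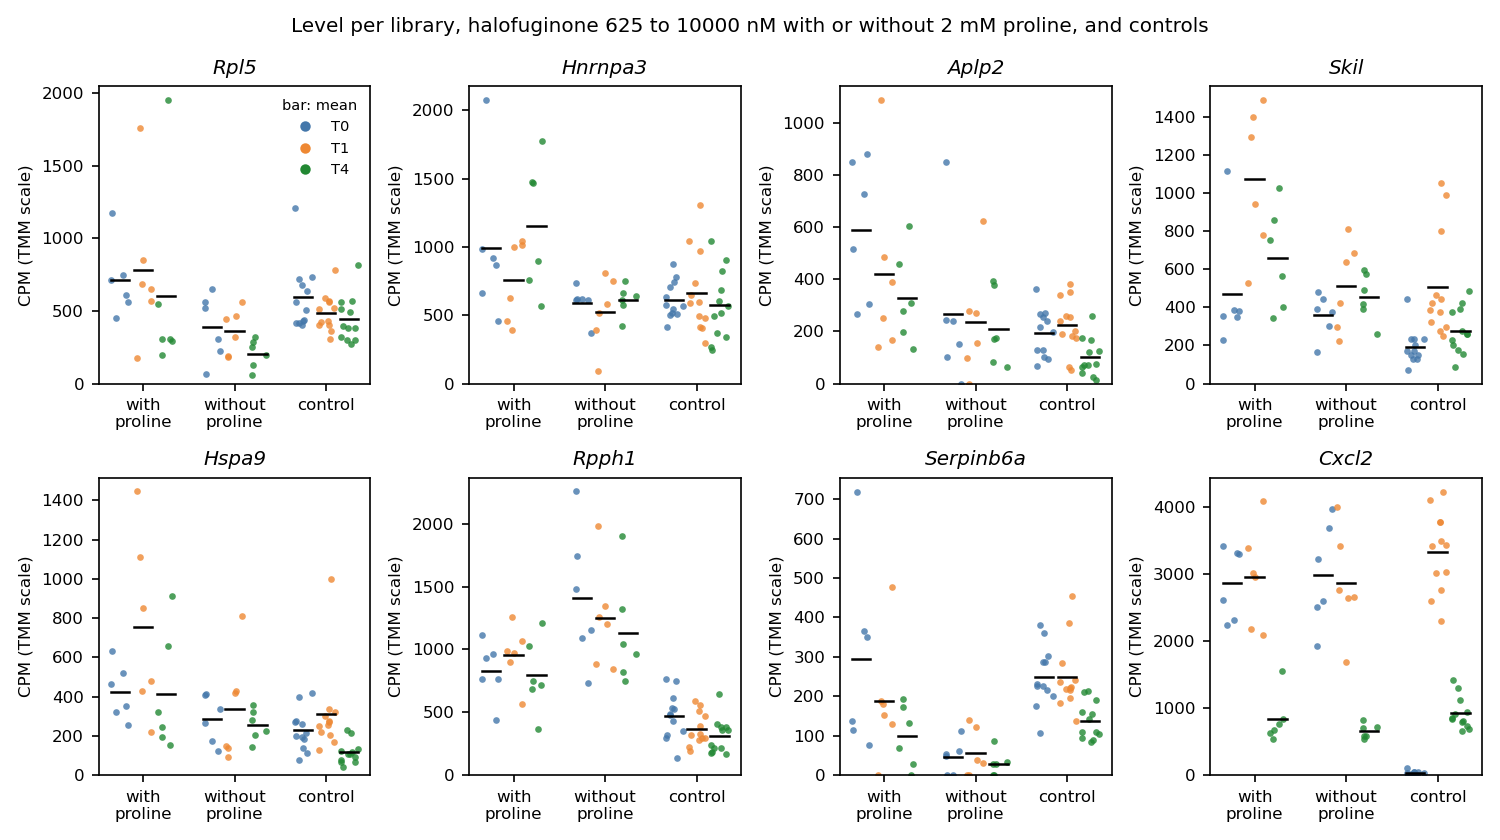
CPM on a common TMM scale in every library for the 6 called genes, Serpinb6a and Cxcl2, with proline left of without proline at 625 to 10000 nM, then controls; colours mark T0, T1 and T4 and bars are means. For Rpl5 the arms overlap, with medians of 586 CPM with proline and 296 CPM without; for Cxcl2 both treated arms at T0 lie far above the controls.

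The filter that fixed these 204 genes required counts in about an arm's worth of libraries and was strict at this depth. A wider filter, by time, dose and arm, was added after seeing the data; it let 839 genes be tested, of which 9 passed (1.07%), 8 higher (0.954%) and 1 lower (0.119%). These were Rpl5, Hnrnpa3, Aplp2 and Rpph1 again, and Serpinb6a, Hnrnpul2, Anp32a, Gbp3 and Mfap1b. At an unadjusted p under 0.05 stood 82, or 9.77%. Leaving out each library in turn, Rpl5 and Serpinb6a passed in all 36 fits, Hnrnpul2 in 22, Anp32a in 21, Rpph1 in 20, Hnrnpa3 in 17, Gbp3 in 16, Mfap1b in 12 and Aplp2 in 10. These fits kept the genes that the filter chose from all 36 libraries. They therefore do not test the entry of Serpinb6a and Mfap1b, which came only through libraries with proline. The calls of Rpph1 and Hnrnpa3 were thus less steady under this filter than under the filter by arm.

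Serpinb6a had the largest change of these (chr13:33917918-34002794, minus strand). Its lowest, median and highest levels were 0, 144 and 719 CPM with proline, against 0, 31.7 and 140.2 CPM without and 84.3, 214 and 454 CPM in controls. Its reads numbered 139 with proline and 26 without over 18 libraries each, and 2 libraries with proline and 6 without had none. The log2 change was 1.93 (SE 0.43, 95% interval 1.07 to 2.80, adjusted p = 0.00246). The wider filter asks for about 10 reads at the median depth in at least 2 libraries, above the highest level without proline. Serpinb6a thus entered this test only through libraries with proline, where it is high. Its call and the size of its change may be favoured by that entry. Against the same controls Serpinb6a stood at a log2 value of -0.25 with proline and -2.17 without. The medians were 243 CPM with proline and 51.6 CPM without at T0, 166 CPM with and 34.9 CPM without at T1, and 100.3 CPM with and 28.4 CPM without at T4.

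An earlier fit of these data had called Serpinb6a and Ncor1, a corepressor of nuclear receptors, at T0, so the libraries of T1 and T4 give the same measure in samples that call did not use. There Serpinb6a had 62 reads with proline and 17 without in 12 libraries each, with medians of 142 CPM with proline and 30.0 CPM without, and a difference in mean log2 CPM of 0.89 (two-sided exact permutation within cells, p = 0.00514, adjusted p = 0.0103 over the 2 genes), and 9 of 12 libraries with proline exceeded the median without. This permutation test was added after seeing the data, and at T1 with T4 Serpinb6a and Ncor1 passed neither filter for the edgeR test. At T0 under the wider filter the edgeR test did not call them: Serpinb6a had a log2 change of 2.42 (SE 0.69, adjusted p = 0.216) and Ncor1 1.65 (SE 0.68, adjusted p = 0.513). Ncor1 had 41 reads with proline and 25 without, with medians of 71.2 CPM with proline and 61.4 CPM without, and a difference of 0.34 (exact permutation p = 0.142, adjusted p = 0.142). Over all 36 libraries Ncor1 had a log2 change of 0.91 (95% interval 0.13 to 1.70, adjusted p = 0.287, wider filter). Genes on the other strand overlap both, Nqo2 and Ripk1 for Serpinb6a and Ttc19 and Pigl for Ncor1, and the strand setting of the counting is not given, so reads of these partners cannot be told apart.

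Hnrnpul2, an RNA-binding protein of the hnRNP U family, had medians of 279 CPM with proline and 97.9 CPM without, and a log2 change of 1.11 (SE 0.29, adjusted p = 0.0437). Anp32a, an acidic nuclear protein that binds histones and inhibits a phosphatase, had 202 CPM with proline and 44.7 CPM without, and a change of 1.32 (SE 0.35, adjusted p = 0.0437). Mfap1b, a spliceosome component, had 89.3 CPM with proline and 25.9 CPM without, and a log2 change of 1.6 (SE 0.49, adjusted p = 0.0481). Its reads numbered 85 with proline and 22 without. Its highest level without proline, 239.5 CPM, lay below what the wider filter asks for before TMM scaling. Like Serpinb6a, Mfap1b thus entered this test only through libraries with proline, and its call may be favoured by that entry. Gbp3, an interferon-induced GTPase, had 67.1 CPM with proline and 0 CPM without, and a change of 1.53 (SE 0.43, adjusted p = 0.0437); without replicate 2 with proline at 2500 nM and T4 the change was 1.01 and the adjusted p 0.345.

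Cxcl2 and Ifrd1, both far above controls in the treated arms at T0, did not pass the proline test over all times. Rpph1 passed it, and Serpinb6a did under the wider filter, and both also stood apart from controls without proline. Control levels of Cxcl2 at T1 and T4 are not given here. Cxcl2, a neutrophil-attracting chemokine, averaged 2212 ± 1144 CPM with proline and 2162 ± 1252 CPM without (SD, n = 18 each), and its log2 change was 0.05 (95% interval -0.21 to 0.31, adjusted p = 0.895). At T0 Cxcl2 ran from 2238 to 3412 CPM with proline and from 1922 to 3956 CPM without, against 0 to 98.6 CPM in controls. Ifrd1 at T0 averaged 886 ± 215 CPM with proline and 896 ± 206 CPM without (SD, n = 6 each), against 27.2 ± 24 CPM in controls (SD, n = 12). Its log2 change over all times was -0.07 (95% interval -0.49 to 0.35, adjusted p = 0.898). The treated arms overlapped at every time for both genes.

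The response genes listed next had intervals that stayed within 1 of 0 on the log2 scale. The interval of Egr1, given below with the immediate early genes, reached beyond this. Atf3, a stress transcription factor, had a log2 change of -0.16 (95% interval -0.57 to 0.24), Jun, a component of AP-1, -0.19 (-0.61 to 0.23), and Dusp1, a phosphatase of MAP kinases, -0.18 (-0.64 to 0.27). Rn45s had -0.04 (-0.13 to 0.06) and Lars2 -0.10 (-0.23 to 0.03). Kdm6b, a histone demethylase, had a log2 change with proline of -0.36 (-0.82 to 0.10), Gadd45b, a stress sensor, 0.05 (-0.35 to 0.45), and the chemokine Cxcl10 -0.12 (-0.42 to 0.18). Each arm was also set against the same controls. Atf3 stood at a log2 value of 1.82 with proline and 1.97 without, Jun at 2.31 with and 2.37 without, and Dusp1 at 1.49 with and 1.48 without. Rn45s stood at 1.09 with proline and 1.14 without, and Ifrd1 at 3.28 with and 3.31 without. Intervals of the proline change were wider for ATF4 pathway genes, which could be tested only under the wider filter: Atf4 had -0.10 (-0.76 to 0.56), Cebpb, a C/EBP factor, 0.08 (-0.51 to 0.66), and Ddit3, which encodes CHOP, -0.83 (-1.75 to 0.09, adjusted p = 0.561). Eprs itself was too low to test; it had 73 reads and a median of 95.8 CPM with proline, 39 reads and a median of 54.8 CPM without, and a control mean of 83.5 CPM.

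**Figure D3:**
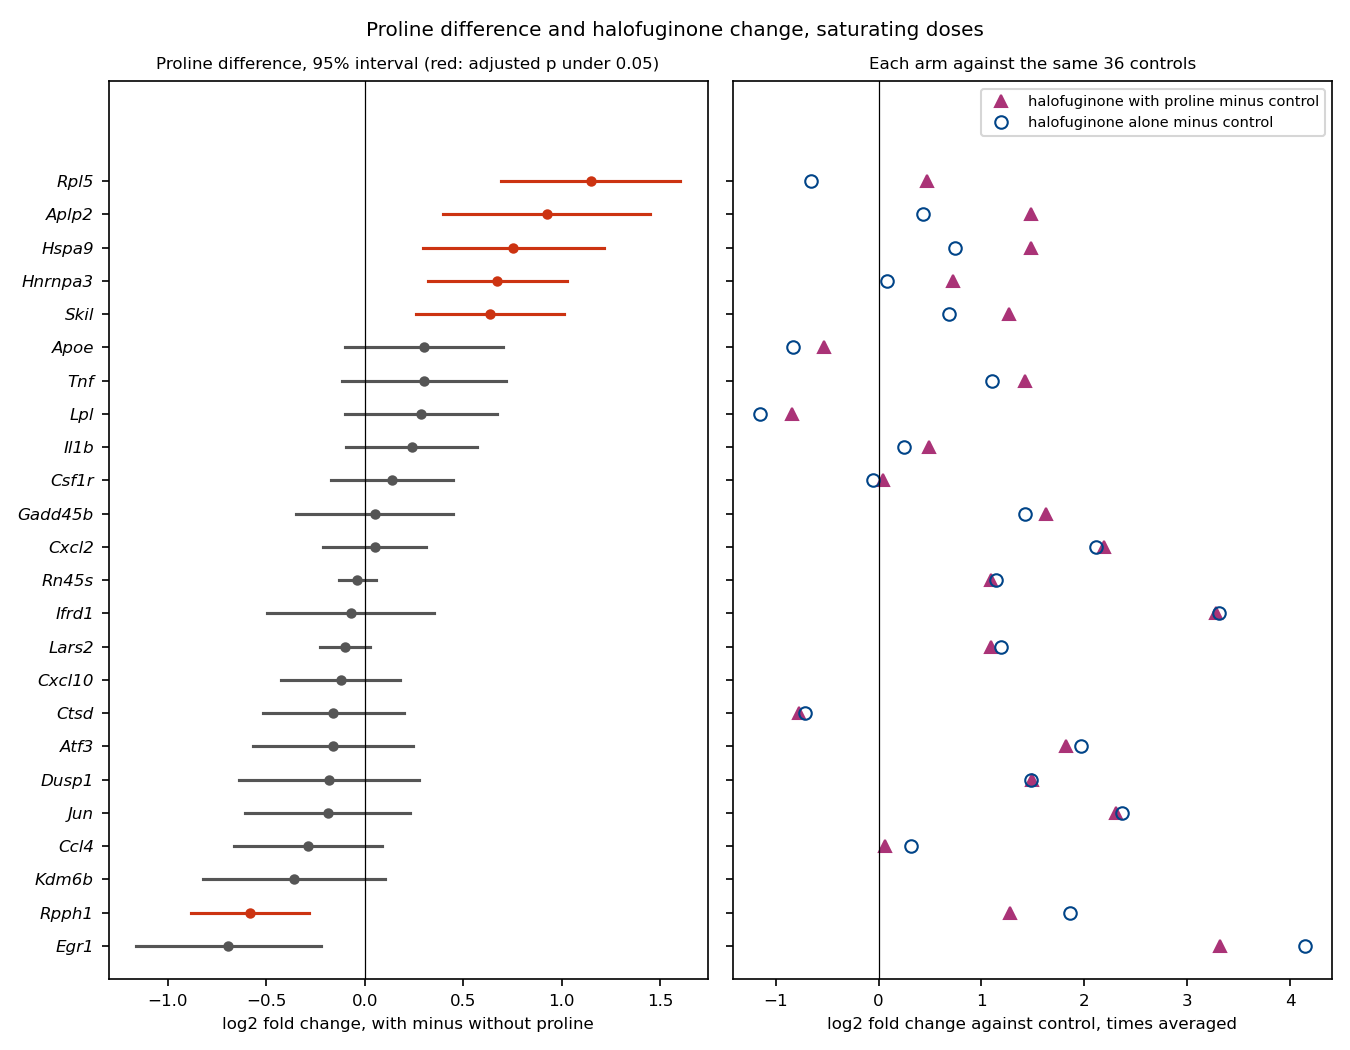
Left, log2 fold change with minus without proline at 625 to 10000 nM with its 95% interval, for the called genes (red) and the response genes that were tested; right, log2 fold change of halofuginone with proline (triangles) and without it (circles) against the same 36 controls, not drawn for Cxcl10 and Kdm6b, which had groups with no count. Ifrd1 has a proline change of -0.07 beside 3.28 and 3.31 against controls.

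The gene lists held few calls, and their counts stand beside 2.94% called over all 204 genes, or 1.07% over the 839 of the wider filter. Of 15 inflammatory genes tested none passed (edgeR, 0 at an unadjusted p under 0.05); Il1b had 0.24 (95% interval -0.09 to 0.57), Tnf 0.30 (-0.12 to 0.72) and the chemokine Ccl4 -0.29 (-0.67 to 0.09), and the list's median was -0.04 beside -0.05 over all 204 genes. Of 3 ATF4 targets none passed, with a median of 0.01, and Ppp1r15a, whose product helps reverse the phosphorylation of eIF2α, had 0.03 (-0.35 to 0.41). Of 26 interferon-stimulated genes tested under the wider filter 1 passed, Gbp3, with a median of 0.03 beside 0.02 over all 839, and Rsad2 and Ifit1, antiviral effectors, had 0.14 and 0.23. No gene of proline metabolism or transport had enough counts. Under the wider filter 1 of 23 cytosolic tRNA synthetases was tested, Nars, at 0.91 (adjusted p = 0.454).

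A further 3 genes with lower values with proline just missed the threshold, each with an adjusted p of 0.0702. Lilrb4, an inhibitory receptor, had medians of 862 CPM with proline and 1159 CPM without, and a log2 change of -0.44; its near copy Gp49a, at -0.51, could share its reads. Pik3r5, a regulatory subunit of PI3 kinase gamma, had -0.54 and the receptor phosphatase gene Ptprj -0.63.

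Immediate early genes lay below 0 and the listed chaperones that could be tested above it, without passing. All 7 immediate early genes tested had negative log2 changes, with a median of -0.19 and none called (edgeR, 2 at an unadjusted p under 0.05), beside 119 of all 204 genes below 0. Under the wider filter 12 of 13 lay below 0, with a median of -0.17, beside 401 of 839. Without T1 Jun stood at 0.12. Egr1, a zinc finger factor of that class, had 0, 335 and 741 CPM with proline against 44.3, 447 and 1232 CPM without, and a log2 change of -0.69 (95% interval -1.16 to -0.22, adjusted p = 0.0702). Btg2, an antiproliferative gene, also had -0.69 (adjusted p = 0.084). Of 16 endoplasmic reticulum chaperones listed 3 were tested, with a median of 0.34 and Calr (calreticulin) at 0.59 (95% interval 0.19 to 0.98, adjusted p = 0.0702). Of 13 heat shock genes listed 3 were tested, with a median of 0.37 and Hsp90ab1 at 0.53 (adjusted p = 0.0702). All 3 in each list lay above 0, beside 85 of all 204 genes. Calr had medians of 1063 CPM with proline and 563 CPM without, against a control mean of 734 CPM.

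Genes of macrophage identity, lysosome and cytoskeleton gave no call either (edgeR; 1, 1 and 0 at an unadjusted p under 0.05). Of 6 macrophage genes 4 lay above 0, with Apoe at 0.30 (95% interval -0.10 to 0.70), Lpl, the lipoprotein lipase gene, at 0.29 (-0.10 to 0.67), and Tyrobp, a signalling adaptor, at -0.46 (adjusted p = 0.189). Of 8 lysosomal genes 3 lay above 0, with Gpnmb at 0.37 (adjusted p = 0.334) and Grn, the progranulin gene, at -0.20 (-0.45 to 0.06), and Ctsd, encoding cathepsin D, at -0.16 (-0.52 to 0.20). Ccr2, a chemokine receptor of monocytes, was too low to test, with 16 reads with proline and 12 without, beside a control mean of 138 CPM. All 6 actin cytoskeleton genes lay below 0, with a median of -0.08 and Actb at -0.07, but under the wider filter 3 lay above and 9 below, and without T1 Actb stood at 0.03. Lists of stress response, iron, glycolysis, translation factor and chromatin genes likewise held no call, with medians from -0.19 to 0.06.

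No gene passed the test of a difference between times. The test of proline by time called 0 of 204 genes (0%; edgeR, 6 at an unadjusted p under 0.05, smallest adjusted p 0.999; DESeq2 called 0). T0 alone called 0 of 220 (0%; 17, or 7.73%, at an unadjusted p under 0.05; DESeq2 called 0). T1 with T4 called 1 of 186 (0.538%; 18, or 9.68%, at an unadjusted p under 0.05), Rpl5, with DESeq2 calling 3. By dose, within the pooled fit, 0 genes passed at 625 nM (18 at an unadjusted p under 0.05), 0 at 2500 nM (19) and 4 at 10000 nM (25): Rpl5, Hnrnpa3, Aplp2 and Mcl1. Mcl1, a survival factor of the BCL2 family, was lower with proline at that dose, with a log2 change of -1.35 (adjusted p = 0.0244), and is named because of this count.

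At 39 and 156 nM more genes passed. Of 291 tested, 38 did (13.1%), 20 higher with proline (6.87%) and 18 lower (6.19%), from 24 libraries, and 90, or 30.9%, had an unadjusted p under 0.05. Under median-of-ratios scaling 29 were higher and 17 lower. The only gene called in both dose classes was Skil, among 192 genes tested in both, at 0.64 at the saturating doses and -0.69 at the middle doses. Among the 192, 5 genes were called at the saturating and 24 at the middle doses. With so few calls, an overlap of 1 gene cannot show whether the classes share their changes. Here 10 of 35 ribosomal protein genes rose, and Ifrd1 (-1.29), Jun (-1.10) and Rn45s (-0.52) fell on the log2 scale. Rn45s averaged 541667 CPM with proline and 738426 CPM without at the middle doses (n = 12 each), and at the saturating doses it averaged 733532 CPM with proline and 748846 CPM without (n = 18 each).

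The difference between the proline changes of the dose classes was tested itself. Of 260 genes 16 passed (6.15%), 10 with a higher (3.85%) and 6 with a lower (2.31%) value at the saturating doses, and 58, or 22.3%, had an unadjusted p under 0.05. Rpl5 had a log2 change of 1.15 at the saturating and -0.23 at the middle doses (difference 1.27, SE 0.34, adjusted p = 0.0172), and Hnrnpa3 had 0.67 and -0.55 (difference 1.15, SE 0.30, adjusted p = 0.0142). Skil differed by 1.24 (SE 0.29, adjusted p = 0.00565) and Malat1 by 1.13 (SE 0.22, adjusted p = 0.000469). Ifrd1 differed by 1.17 (SE 0.35) and Rn45s by 0.45 (SE 0.11), and for these the change lay at the middle doses. Aplp2, Hspa9 and Rpph1 were not among the 16. Under median-of-ratios scaling 27 passed, 10 higher and 17 lower, and by DESeq2 12 higher and 23 lower, so which direction held more calls depended on these settings, while the median over all tested genes moved from 0.08 under TMM scaling to -0.02.

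**Figure D4:**
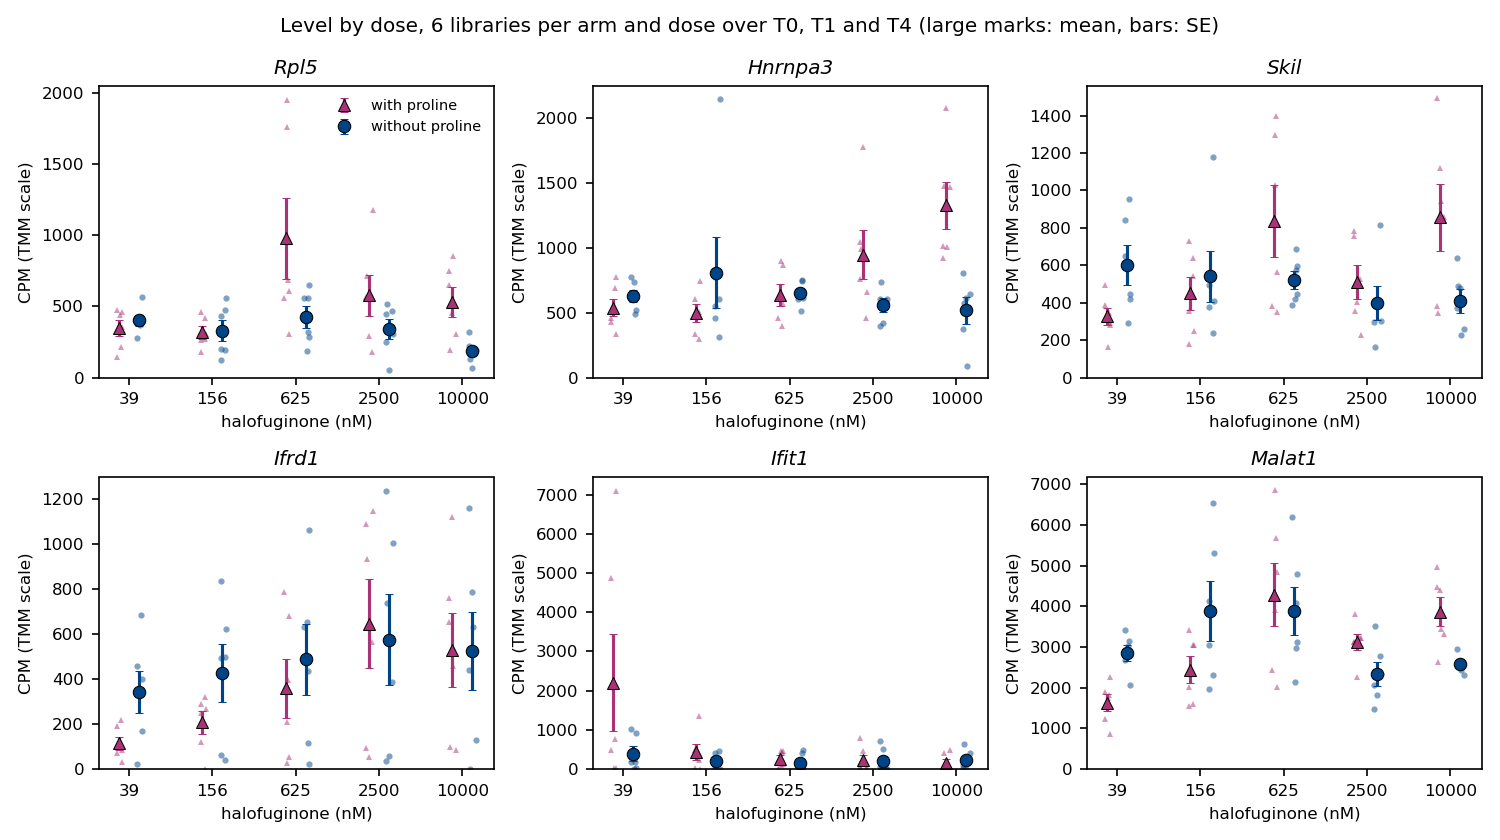
CPM by halofuginone dose for 6 genes, with proline (triangles, left) and without (circles), 6 libraries per arm and dose over the 3 times; large marks are means and bars SE. Hnrnpa3 with proline reaches a mean of 1327 CPM at 10000 nM, against 518 CPM without, while the arms of Ifrd1 are apart at 39 nM (means of 114 CPM with and 343 CPM without) and together at 10000 nM (528 CPM with and 524 CPM without).

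**Figure D5:**
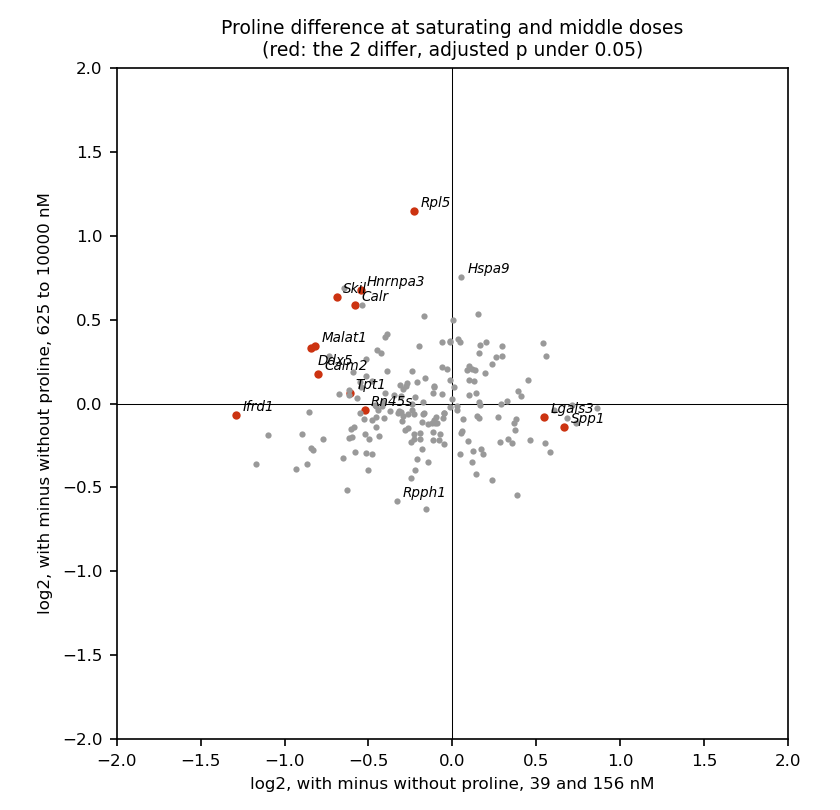
Log2 fold change with minus without proline at 625 to 10000 nM against that at 39 and 156 nM for 192 genes tested in both; red marks genes whose 2 changes differ. Rpl5 lies at 1.15 and -0.23 and Ifrd1 at -0.07 and -1.29.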

How the data were processed

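The series holds 120 mouse macrophage libraries made by 3′ digital gene expression (modified SCRB-Seq and Nextera steps, per the labels). The table the authors deposited holds unscaled read counts for 23481 gene symbols, and BWA and mm10 appear in the submitters' processing notes. Which program and annotation did the counting, with which strand setting, and whether molecular identifiers were used, is not given in the sources used here. Counts were tested as deposited.

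The members and gene lists were chosen with earlier results of these data known. The 36 libraries were fitted in R 4.3.3 with edgeR 4.0.16: TMM scaling, filterByExpr by arm with a minimum count of 10, time and dose as additive blocks, a two-sided quasi-likelihood test, Benjamini-Hochberg adjustment over all genes tested and a threshold of 0.05. Levels are CPM on 1 TMM scale over 120 libraries. Intervals are 95% Wald intervals of the fit. Log2 CPM used a prior count of 3. Fits against controls averaged the times. DESeq2 1.42.0 and other settings were alternatives. Named genes are those called in the proline test, the next by unadjusted p in a direction with few calls, a fixed set of response genes, the genes of each list with the smallest p, and those of smallest p in the interaction and middle-dose tests; a few of these are not reported here.

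Checked on simulated data for this comparison, the filter by arm (201 genes) recovered 10 of 17 changes of 1.5-fold (58.8%) and 18 of 18 of 2-fold (100.0%). The wider filter (852 genes) recovered 19 of 70 (27.1%) and 53 of 77 (68.8%). In the simulation a larger share of tested genes was changed than was called in these data. That eases the Benjamini-Hochberg threshold, so recovery in these data may be lower. Gene positions are from the GENCODE M21 annotation of GRCm38 and promoters from RefSeq. No 2 replicate libraries were identical, and TMM factors ran from 0.62 to 1.32. Reads without stated molecular identifiers may not be independent molecules.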

Additional observations from a re-analysis of the deposited data

Results flagged for a closer look

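Each gene here is among 16 whose proline change differed between the saturating and the middle doses in a direct test (edgeR, adjusted p under 0.05). The values are the log2 fold change with minus without proline at 625 to 10000 nM, less the same at 39 and 156 nM. Among RNA-binding, nuclear and structural RNA genes the difference was 1.15 for Hnrnpa3, 1.12 for the helicase gene Ddx5, 1.13 for Malat1 and 0.45 for Rn45s. For the transcriptional regulators Skil and Ifrd1 it was 1.24 and 1.17. The calcium-binding proteins Calm2 and Calr had 0.94 and 1.07, and the translation-associated gene Tpt1 had 0.60.

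Ribosomal protein genes went both ways, with 1.27 for Rpl5 and -1.32 for Rps29. The interferon-stimulated genes Ifit1 and Rsad2 had -1.44 and -0.97. The secreted proteins Lgals3 (galectin-3) and Spp1 (osteopontin) had -0.67 and -0.85. Most of these genes were called at the middle doses alone; Rpl5 and Hnrnpa3 were called at the saturating doses alone, Skil in both with opposite signs, and Calr in neither. Rps29, Ifit1 and Rsad2 did not pass the filter at the saturating doses alone. No cause was tested.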

How the results depend on the processing

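The count of 6 genes called (5 higher, 1 lower) was within 1.5 times of itself under median-of-ratios scaling (6), without a filter on low counts (6 of 11430, of which 1 was among the main 6; 0 lower) and under the wider filter (9; 8 higher). DESeq2 called 15, 7 higher and 8 lower. One block per time-by-dose cell gave 3 (2 higher). Leaving out T0 gave 1 higher and 0 lower, T1 gave 2 higher and 0 lower, and T4 gave 0 (0 higher, 0 lower; edgeR, 31 at an unadjusted p under 0.05). Without 625 nM 2 were lower among 9, without 2500 nM 1 was called (1 higher, 0 lower), and without 10000 nM 2 (2 higher, 0 lower). Leaving out Rn45s, Lars2 and 4 small RNAs gave 3 (3 higher, 0 lower), and libraries of 30000 counts or more gave 2 (1 higher). The cause of these shifts was not tested, but leaving out libraries also leaves fewer samples. Leaving out each library gave 2 to 10 calls, 1 to 8 higher and 1 to 3 lower. It gave 2 without T4 10000 nM without proline 1, and 10 without T0 625 nM without proline 2. It gave 3 without each of T0 10000 nM with proline 2, T0 2500 nM with proline 2, T1 625 nM with proline 1, T4 625 nM with proline 1, T0 2500 nM without proline 1, T0 625 nM without proline 1, T1 10000 nM without proline 1 and T4 10000 nM without proline 2.

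The main fit did not pair libraries by replicate number. In the 9 time-by-dose cells the correlations of same-numbered libraries ran from -0.24 to 0.23, with 2 over 0.1. At this depth such correlations cannot show that pairing is absent. With the replicate number as a block 5 genes were called, and with 18 pairs as a block 2 (1 higher).

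Without a filter the time interaction called 2 and T1 with T4 2 (2 higher); DESeq2 called 3 (3 higher) at T1 with T4. Leave-outs gave 0 to 4 calls at T0 (0 to 4 higher), 0 to 2 at T1 with T4 (0 to 2 higher) and 0 to 3 for the dose interaction. At the middle doses no filter gave 8 (5 higher, 3 lower), DESeq2 36 higher, and leave-outs 26 to 56 calls (15 to 30 higher, 10 to 26 lower). For the difference between dose classes, median-of-ratios scaling gave 27 (17 lower), no filter 4 (4 higher, 0 lower), DESeq2 35 (12 higher, 23 lower) and leave-outs 6 to 28 (5 to 13 higher, 1 to 16 lower). The difference of 348 genes with a count reached 458 in 1 leave-out, and ran from 260.0 to 458. Rpl5 was called in 14 of 15 other settings, Hnrnpa3 in 8 of 15, Rpph1 in 8 of 14, Aplp2 in 5 of 11, Skil in 3 of 15 and Hspa9 in 2 of 15. No called value changed sign in these settings, but the majority of calls turned from higher to lower under DESeq2 at the saturating doses, and under DESeq2 and median-of-ratios scaling for the difference. Depth limits what could be tested: 204 of 23481 symbols passed the filter.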
